A study of Mus musculus with 8 samples.

Results

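Histone genes were represented by 52 of the 11251 H3K9ac regions in the deposited table, chosen by gene name alone: the name given to the region by the authors' annotation had to begin with Hist1h, Hist2h, Hist3h, Hist4h, H2af, H3f3 or H1f. Of these, 43 regions under 39 gene names belong to the replication-dependent histone gene clusters (33 Hist1h, 8 Hist2h, 1 Hist3h and 1 Hist4h region), and 9 regions under 8 names belong to replacement variants (5 H2af, 3 H3f3 and 1 H1f region). H3K9ac, acetylation of lysine 9 of histone H3, was measured by ChIP-seq, the sequencing of DNA pulled down with an antibody to the mark, in epithelial cells of the terminal ileum; the mice were C57Bl/6 and wild type. The groups were 3 libraries from mice given 150 mM butyrate for 7 days and 3 libraries from mice given vehicle. The labels do not say what the vehicle was, nor the age or sex of the mice, nor whether each library came from 1 mouse, so p-values measure the spread between these libraries, which may be technical. Butyrate comes from bacterial fermentation of fibre in the gut and is known as an inhibitor of histone deacetylases.

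As background, nuclear DNA is wound around the core histones H2A, H2B, H3 and H4, and linker histone H1 binds the DNA between nucleosomes. Replication-dependent histone genes are short, mostly without introns, lie together in clusters and are transcribed in S phase to package newly copied DNA. Their mRNAs end in a conserved stem-loop bound by Slbp instead of a poly(A) tail. Replacement variants such as H3.3, H2A.Z, macroH2A and H1.0 are made outside S phase too, from scattered genes whose mRNAs are mostly polyadenylated. In the ileal epithelium the dividing cells sit in the crypts, and the enterocytes covering the villi no longer divide.

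The stem-loop is the feature of sequence that separates the classes of gene, so it is shown first. Each annotated gene and the 300 bases downstream of it were searched on the gene's strand of the mouse genome (RefSeq GRCm38.p6). The search was for the 16-base stem-loop core with at most 3 differences from its commonest mouse form. The GG that opens the core, the CC that closes it and some T and A bases between them had to match. A core was found in 63 of the 67 protein-coding replication-dependent genes annotated in GENCODE M21, and 41 of these carry the commonest form, shown here for Hist1h1c. Of the 15 replacement genes a core was found in H2afx alone, and H2A.X is known to be made from both a stem-loop and a polyadenylated mRNA. The replacement genes H3f3a, H3f3b, H2afv, H2afy, H2afy2 and H1foo, all over 5 kb, were searched for the commonest form only, which H2afx lacks. The sequences below are in DNA letters on the gene's strand, with the core in capitals and 5 bases on either side.
Hist1h1c (chr13:23739507-23739532, plus strand): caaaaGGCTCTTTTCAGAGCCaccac
Hist1h3e (chr13:23561898-23561923, minus strand): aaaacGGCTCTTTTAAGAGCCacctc
Hist4h4 (chr6:136803993-136804018, minus strand): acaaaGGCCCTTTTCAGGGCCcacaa
Hist2h4 (chr3:96262934-96262959, minus strand): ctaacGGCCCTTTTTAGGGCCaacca
Hist1h3g (chr13:23535884-23535909, plus strand): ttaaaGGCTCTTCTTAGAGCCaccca
H2afx (chr9:44335235-44335260, plus strand): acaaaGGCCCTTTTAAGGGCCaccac

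The first 6 bases, which form 1 side of the stem, came in 2 forms. The GG that opens them and the T that closes them were fixed by the search. GGCCCT was found in 12 genes, of which 11 encode H4 and the other is H2afx. GGCTCT was found in 52 genes, none of which encodes H4. Of the 63 replication-dependent stem-loops, 35 lay inside an H3K9ac region, as did the one of H2afx.

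Promoters differed in sequence between the classes as well. RefSeq promoter windows, 250 bases before to 50 bases after the start (GRCm38.p6), were matched by symbol, older symbol and position for 62 of the 67 replication-dependent genes and 14 of the 15 replacement genes. TATAAA, the letters of a TATA box, was looked for on both strands and found in 35 of 62 replication-dependent promoters (56.5%), in 1 of 14 replacement promoters (7.14%) and in 13.6% of all 32851 RefSeq promoters. CCAAT on either strand was found in 53 of 62 replication-dependent promoters (85.5%), in 10 of 14 replacement promoters (71.4%) and in 37.4% of all promoters. Among the replication-dependent genes CCAAT stood in 6 of 6 H1, 18 of 18 H2A, 16 of 16 H2B and 10 of 10 H3 promoters, but in 3 of 12 H4 promoters. The octamer ATTTGCAT, the letters bound by Pou2f1, was found on either strand in 13 of 62 replication-dependent promoters (20.97%), in 1 of 14 replacement promoters and in 1.74% of all promoters. For histone genes 1 window per gene was counted, which left out a second window of Hist1h2be that holds the octamer. The 13 replication-dependent promoters with the octamer were 7 H2A and 6 H2B genes. Windows of facing H2A and H2B genes overlap, so 1 site can count for both genes, as the octamer does at Hist1h2ah and Hist1h2bk. Likewise Hist1h2bn, which faces Hist1h2ak, holds TATAAA only in its reverse letters, TTTATA. These counts are therefore of genes and not of separate sites. None of these motifs is contained in another, and a match or its absence says nothing about binding.

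The windows below lie inside the H3K9ac regions of their genes and show these forms: an H1 gene with CCAAT alone, the H2A gene that faces Hist1h2bc, an H4 gene with none of the motifs, and the H3.3 gene that was the 1 replacement gene with TATAAA and the octamer. Capitals mark the motifs on either strand, so that CCAAT may read ATTGG and the octamer ATGCAAAT.
Hist1h1c (chr13:23738557-23738856, plus strand): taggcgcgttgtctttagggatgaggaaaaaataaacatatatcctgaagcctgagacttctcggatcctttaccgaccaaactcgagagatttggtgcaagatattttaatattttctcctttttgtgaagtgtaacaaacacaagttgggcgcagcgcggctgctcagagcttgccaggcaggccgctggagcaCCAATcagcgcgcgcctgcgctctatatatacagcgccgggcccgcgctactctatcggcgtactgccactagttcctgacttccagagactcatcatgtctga
Hist1h2ac (chr13:23683910-23684209, minus strand): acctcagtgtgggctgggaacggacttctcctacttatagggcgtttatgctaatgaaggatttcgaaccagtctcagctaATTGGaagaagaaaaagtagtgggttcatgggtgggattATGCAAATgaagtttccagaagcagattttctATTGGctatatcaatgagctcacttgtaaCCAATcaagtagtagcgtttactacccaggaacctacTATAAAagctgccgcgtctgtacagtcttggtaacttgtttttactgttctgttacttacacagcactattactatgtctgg
Hist4h4 (chr6:136804382-136804681, minus strand): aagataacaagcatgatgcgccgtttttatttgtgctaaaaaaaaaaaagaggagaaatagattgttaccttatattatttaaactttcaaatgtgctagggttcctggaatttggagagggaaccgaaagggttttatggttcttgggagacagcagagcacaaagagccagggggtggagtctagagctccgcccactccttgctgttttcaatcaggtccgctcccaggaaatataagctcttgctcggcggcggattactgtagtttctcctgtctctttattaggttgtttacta
H3f3b (chr11:116024455-116024754, minus strand): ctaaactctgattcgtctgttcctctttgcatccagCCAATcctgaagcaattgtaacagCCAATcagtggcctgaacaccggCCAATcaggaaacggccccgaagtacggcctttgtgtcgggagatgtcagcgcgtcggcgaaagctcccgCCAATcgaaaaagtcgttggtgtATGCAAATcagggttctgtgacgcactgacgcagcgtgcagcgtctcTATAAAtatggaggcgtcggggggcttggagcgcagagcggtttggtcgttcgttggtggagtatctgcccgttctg

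The effective library sizes recovered from the whole table were 22190474, 17909553 and 22512631 reads for the butyrate libraries and 25805595, 17846924 and 20673786 reads for the vehicle libraries, with a median of 82 to 120 reads per region. Pairs of libraries within a group differed by 1.93 to 2.09 times the variance that counting gives if each read is independent. The reads were paired, and whether both mates of a pair were counted is not given in the sources used here. These values can therefore not tell whether the libraries of a group are copies of 1 library. By the markers listed for the cell types, 12 of 12 epithelial genes named a region, with a summed level of 62.8 to 69.9 RPKM in butyrate libraries and 65.8 to 70.2 RPKM in vehicle libraries. Of 12 leukocyte genes only Ptprc named one, at 0.56 to 1.35 and 0.67 to 0.93 RPKM, and of 10 genes of mesenchyme and vessels Vim and Cdh5 did. A name need not mean a mark at the gene's start. The region read for Cdh5 was centred at -64806 bp from its start, and that for the epithelial gene Krt18 at -11641 bp.

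H3K9ac was lower at the regions named for replication-dependent histone genes than at those named for replacement genes. This is a description with no test, on a scale per length of region. A gene without a region has no level here, and no region overlapped 24 of 67 replication-dependent and 7 of 15 replacement genes. In these bulk libraries, fewer cells that carry the mark and less of it per cell cannot be told apart. The mean RPKM over the 6 libraries had a median of 1.71 over the 43 replication-dependent regions (0.914 to 3.35), of 3.73 over the 9 replacement regions (2.59 to 7.34), and of 3.09 over all regions, with quartiles of 1.97 and 4.10. Of the 43 replication-dependent regions 30 were below the lower quartile of all regions, and 2 were above the median of all regions, against 7 of the 9 replacement regions. No replication-dependent region reached the replacement median, and 5 of 43 were above the lowest replacement region. In each single library the order of the class medians was the same: the replication-dependent regions had medians of 1.65, 1.68 and 1.61 RPKM in the butyrate libraries and 1.66, 1.79 and 1.55 RPKM in the vehicle libraries. The replacement regions had medians of 4.29, 2.74 and 3.85 RPKM in the butyrate libraries and 3.96, 4.37 and 3.94 RPKM in the vehicle libraries.

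**Figure D1:**
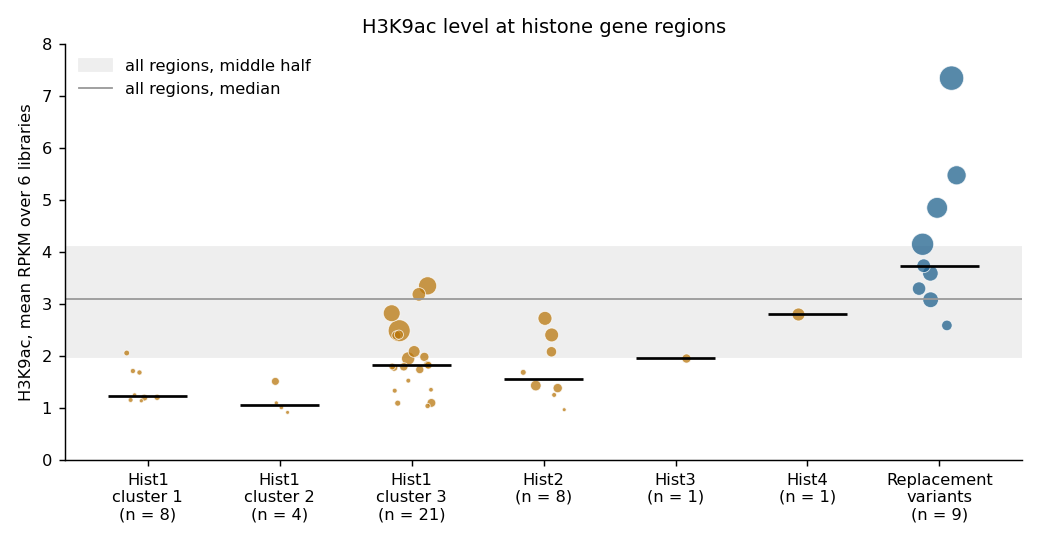
Each point is 1 histone gene region, at its mean H3K9ac level in RPKM over 6 libraries, by gene cluster and with its area growing with its reads; black bars are group medians, and the grey line and band are the median and the quartiles of all 11251 regions. The replacement regions lie between 2.59 and 7.34 RPKM and most replication-dependent regions lie below the band.

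The level also differed along the clusters. The Hist1 genes on chromosome 13 fall into 3 stretches: their regions had a median of 1.23 RPKM in the stretch at 21.7 to 21.8 Mb (8 regions), of 1.05 RPKM at 22.0 Mb (4 regions) and of 1.82 RPKM at 23.5 to 23.8 Mb (21 regions). The 8 Hist2 regions on chromosome 3 had a median of 1.56 RPKM, the Hist3 region on chromosome 11 had 1.95 RPKM and the Hist4 region on chromosome 6 had 2.80 RPKM. By the histone in the region's name, the 3 H1 regions had a median of 3.18 RPKM. Medians were 1.43 RPKM for 7 H2A, 1.57 RPKM for 10 H2B, 1.71 RPKM for 11 H3 and 1.65 RPKM for 12 H4 regions. The region over Hist1h2be and the H1 gene Hist1h1e, at 2.82 RPKM, thus counts as H2B. Regions named Hist1h3g and Hist2h3c1, which overlap H2A genes, count as H3. Hist1h1c and Hist1h1d had the densest regions of the clusters, whereas Hist1h1b, the H1.5 gene, in the first stretch, had 2.06 RPKM in a region of 500 bp with 22.0 reads.

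Replication-dependent regions were also shorter and held fewer reads. Their median length was 1059 bp, against 2121 bp for replacement regions and 1417 bp for all regions. Of the 43 regions, 9 had the table's smallest length of 500 bp, which no replacement region had. A mean of 39.3 reads per library stood behind the median replication-dependent region, 167 behind the median replacement region and 97.7 behind the median region of the table. Under 25 reads were found for 17 of 43 replication-dependent regions (39.5%), for 0 of 9 replacement regions and for 19.6% of all regions, so that small differences were not detectable at many of the clustered genes. The bases of replication-dependent regions were 47.2% G or C in the median, against 56.8% for replacement and 52.2% for all regions, and their CpG dinucleotides stood at 0.622, 0.795 and 0.588 of the number the base composition gives.

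The place of the regions relative to the start site differed between the classes too, along with their length. By the deposited distances, 51 of 52 histone gene regions had their centre within 2 kb of the named start site. The start lay inside the region for 20 of 43 replication-dependent regions (46.5%) and for 7 of 8 replacement regions (87.5%), against 75.6% of the 9807 such regions of the whole table. Regions of 500 bp held a start less often. The start lay inside 0 of 9 such replication-dependent regions, and inside 19.1% of all 1179 within 2 kb of a start. The part of region length in these shares was not tested. Of the 23 replication-dependent regions that missed the start, 19 lay downstream of it and 4 lay upstream. The regions with the start inside had a median level of 2.08 RPKM and those without it 1.35 RPKM, compared with 3.60 and 1.80 RPKM over all regions within 2 kb of a start.

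**Figure D2:**
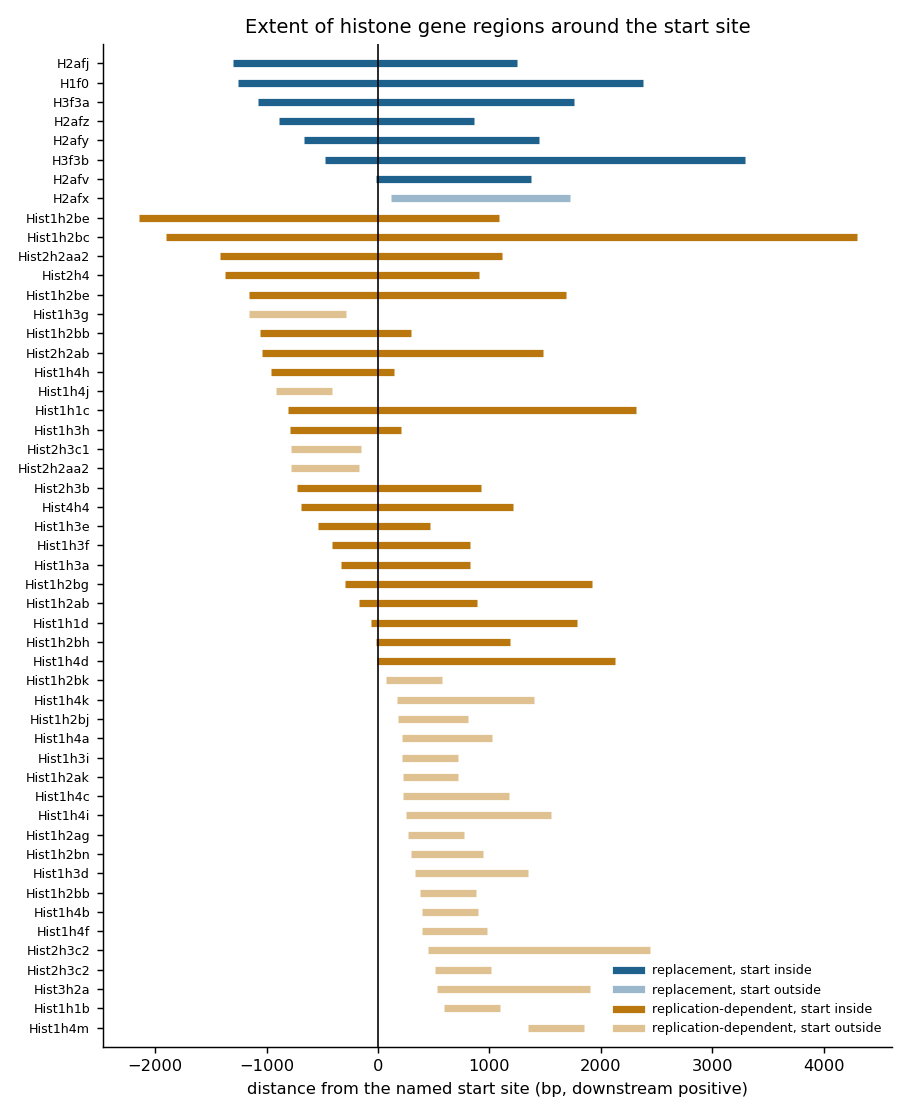
Each bar is 1 of the 51 histone gene regions within 2 kb of a named start site, drawn from its upstream to its downstream edge in bases from the start, which is the vertical line. Pale bars miss the start: 23 replication-dependent regions, mostly to the right of the line, and 1 replacement region.

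A name in the table is that of the nearest annotated start, and it did not always point to the gene under the region. The region named Hist1h3g (chr13:23534261-23535132, coordinates as the table gives them in mm10) overlapped the end of Hist1h2af and not Hist1h3g. The region named Hist2h3c1 overlapped Hist2h2aa2 and touched the promoter window of Hist2h3c2. A region named Hist2h3c2 (chr3:96247215-96247715) overlapped Hist2h3c1, and one named Hist2h2aa2 (chr3:96244036-96246569) covered the start of Hist2h2aa1. These names thus differ between the deposited annotation and GENCODE. Another 4 regions, named H3f3a, Hist2h2aa2, Hist1h4m and Hist1h4j, overlapped no annotated histone gene. Long regions held more than 1 gene: the region named Hist1h2bc (chr13:23682292-23688495), the longest of all members at 6203 bp, covered the starts of the divergent pair Hist1h2bc and Hist1h2ac. The region named Hist2h2ab covered the starts of Hist2h2ab, Hist2h2ac and Hist2h2be, and the first region named Hist1h2be (chr13:23620037-23623273) covered those of Hist1h2be and the H1.4 gene Hist1h1e.

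Counted by gene, 43 of the 67 replication-dependent genes were overlapped by a region and 23 had their annotated GENCODE start inside one, against 8 and 7 of 15 replacement genes. The 7 replacement genes without a region were H1fx, H1foo, H1fnt, H2afy2, H2afb1, H2afb2 and H2afb3, of which H1foo is known as an oocyte gene and H1fnt and the H2afb genes as testis genes. Coverage was 6 of 18 genes in the first Hist1 stretch, 4 of 5 in the second, 22 of 31 in the third and 9 of 10 in the Hist2 cluster. Hist1h2aa, Hist1h2ba and Hist1h1t, which are known as testis genes, were among those with no region.

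Many histone genes share stretches with identical copies elsewhere, and read pairs that lie wholly within a copied stretch cannot be placed on 1 gene. How such pairs were handled is not given in the sources used here. Of the 67 replication-dependent genes, 56 had at least 1 window of 100 bases with an exact copy elsewhere in the genome, and 24 had copies for at least 50% of their windows. Genes over 5 kb were judged only by the bases next to their annotated start. The 0% at Hist1h2be and Hist1h1d holds for that part alone and leaves out their stem-loops. Of those 24 genes 12 were overlapped by a region, against 31 of the other 43. The first Hist1 stretch, where the lowest share of genes was covered, had a median copied share of 76.0%. The second stretch, with 4 of 5 genes covered, had 70.8%, against 29.6% in the third stretch and 20.3% in Hist2. The 5 genes copied over their whole length were Hist2h2aa2, which was overlapped by a region, and Hist1h2ao, Hist1h2ap, Hist1h2bq and Hist1h2br, which were not. Among regions that are in the table, the median was 1.78 RPKM over the 15 replication-dependent regions with no copied window. It was 1.70 RPKM over the 28 with any, even a small share such as 2.44% at Hist1h1c. The 2 sets also differed in median length (955 and 1178.5 bp) and CpG (0.437 and 0.699). The part of copies in the level can therefore not be read from these medians. The region named Hist1h4m, with 75.7% of its windows copied and up to 45 copies of one, overlapped no histone gene, and its values are uncertain. The part of copied sequence in which genes have no region was not tested.

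The effect of butyrate was tested with limma on log2(RPKM + 1) over the 10529 regions with a mean of at least 1 RPKM, which held 41 replication-dependent and 9 replacement regions. No histone gene region passed the test: at an adjusted p under 0.05, 0 of 50 were called, and so were 0 of all regions tested (0.0%). The smallest adjusted p of a histone gene region was 0.669. At an unadjusted p under 0.05, 0 histone gene regions were higher, against 3.35% of all regions, and 1 was lower, Hist1h3a, against 3.91% of all regions. The difference lay below 0 for 25 of 50 histone gene regions and for 5261 of all 10529. The median log2 difference, butyrate over vehicle, was 0.01 over the replication-dependent regions (-0.53 to 0.26), -0.07 over the replacement regions (-0.15 to 0.17) and 0.00 over all regions. With the test on recovered reads (limma voom) 0 histone gene regions were called among all regions, of which 16 were (0.142%), and 0 among regions of at least 25 reads, of which 9 were (0.0995%). Voom over all regions gave an unadjusted p under 0.05 to 3 of 52 histone gene regions as lower, against 5.19% of all regions, and to 0 as higher, against 4.3%. By the authors' deposited table no histone gene region (0 of 52) had a false discovery rate under 0.1, against 28 regions in all (0.249%), and the smallest was 0.432, at the region named Hist1h3g.

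The 3 butyrate libraries all lay above the 3 vehicle libraries at 2 of the 52 histone gene regions, Hist1h1c and Hist2h4, against 6.83% of all regions, and all lay below them at 2, Hist1h3a and Hist1h3e, against 7.35%. Neither share of the members was above that of the table. The standard error of the log2 difference had a median of 0.17 over replication-dependent, 0.12 over replacement and 0.12 over all regions. Within groups, the median coefficient of variation was 21.2% at replication-dependent regions and 14.5% at replacement regions. Counting gives 15.9% and 7.74% if each read is independent, which mates of a pair are not. Whether both mates were counted is not known, so counting alone may give more.

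**Figure D3:**
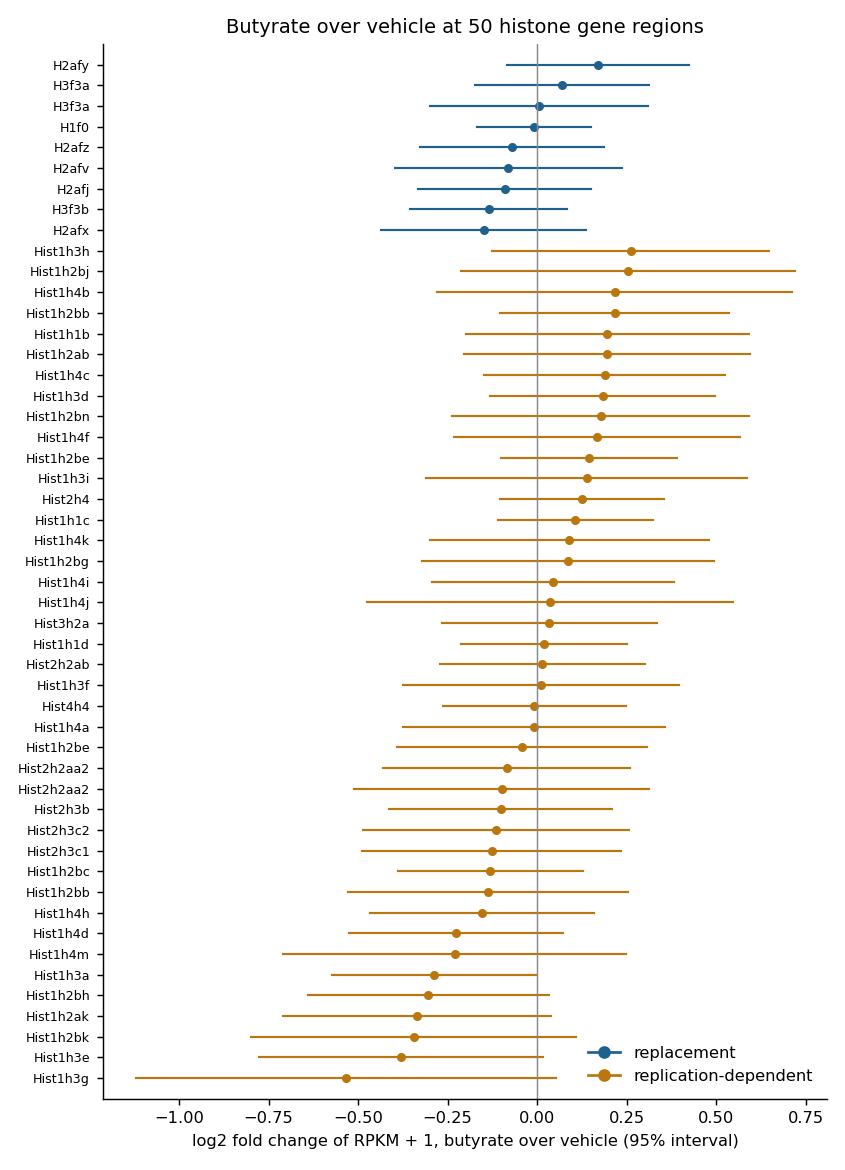
Points are log2 differences of RPKM + 1, butyrate over vehicle, at the 50 histone gene regions tested, with 95% intervals from limma; replacement regions are on top and each class is in falling order. All intervals reach 0 but that of Hist1h3a, which ends just below 0, and the widest belongs to the region named Hist1h3g.

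H1f0 encodes H1.0, the linker histone that builds up in differentiated, non-dividing cells. Its region (chr15:79026956-79030592), which covers the whole gene, had 7.25, 7.22 and 7.48 RPKM in butyrate libraries, against 7.01, 7.998 and 7.10 RPKM in vehicle libraries. It was the densest histone region, at rank 151 of the 11251 regions, and every library was above every library of any other histone region, while the groups overlapped. The log2 difference was -0.01 ± 0.07 (SE; 95% interval -0.17 to 0.15; limma, adjusted p = 0.989), the narrowest interval of the members.

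H3f3a and H3f3b encode the same protein, H3.3, which replaces H3 outside replication. The H3f3a start region (chr1:180811845-180814680) had 5.85, 4.10 and 5.06 RPKM in butyrate libraries, against 4.37, 5.24 and 4.47 RPKM in vehicle libraries. The H3f3b region (chr11:116021211-116024977) had 3.66, 3.54 and 4.54 RPKM in butyrate libraries, against 4.37, 4.37 and 4.39 RPKM in vehicle libraries. At H3f3b 2 butyrate libraries lay under all vehicle libraries and 1 lay over them, and at H3f3a the groups overlapped. The log2 differences were 0.07 ± 0.11 at H3f3a (adjusted p = 0.911) and -0.14 ± 0.10 at H3f3b (adjusted p = 0.779; limma). A second region named H3f3a, centred 35538 bp downstream of the start and outside the gene, had 4.29, 2.69 and 3.85 RPKM in butyrate libraries, against 3.96, 2.91 and 3.83 RPKM in vehicle libraries. Its groups overlapped, with a difference of 0.00 ± 0.14.

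Among the H2A variants, H2afy encodes macroH2A1, which carries a large additional domain. Its region (chr13:56134106-56136213) had 6.84, 5.91 and 4.83 RPKM in butyrate libraries, against 5.98, 4.79 and 4.50 RPKM in vehicle libraries. This was the largest positive difference of a replacement region, 0.17 ± 0.12 (95% interval -0.08 to 0.42; limma, adjusted p = 0.760), and the groups overlapped. H2afx, for H2A.X, the variant phosphorylated at DNA breaks, had 4.39, 2.74 and 3.39 RPKM in butyrate libraries, against 3.49, 4.45 and 3.94 RPKM in vehicle libraries, a difference of -0.15 ± 0.13. H2A.Z, found beside active start sites, is encoded by H2afz and H2afv. H2afz (chr3:137863603-137865347) had 3.67, 2.66 and 3.26 RPKM in butyrate libraries, against 3.11, 3.24 and 3.83 RPKM in vehicle libraries. H2afv (chr11:6443071-6444460), the lowest of the replacement regions, had 2.01, 2.57 and 2.85 RPKM in butyrate libraries, against 2.43, 3.47 and 2.19 RPKM in vehicle libraries. Their differences were -0.07 ± 0.12 and -0.08 ± 0.15. H2afj, for the variant H2A.J, had 3.38, 2.54 and 2.95 RPKM in butyrate libraries, against 3.18, 3.08 and 3.34 RPKM in vehicle libraries, a difference of -0.09 ± 0.11. The groups overlapped at H2afx, H2afz, H2afv and H2afj alike.

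After H1f0, neighbours in the order of replacement levels were not separated by their libraries: H2afy ran from 4.50 to 6.84 RPKM over the 6 libraries, H3f3a at its start from 4.10 to 5.85 RPKM and H3f3b from 3.54 to 4.54 RPKM. Butyrate library S5 was the lowest of its group at 7 of the 9 replacement regions, against 34.5% of all regions and 14 of 43 replication-dependent regions. Without that library the median difference over the replacement regions was 0.00, against -0.07 with it.

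**Figure D4:**
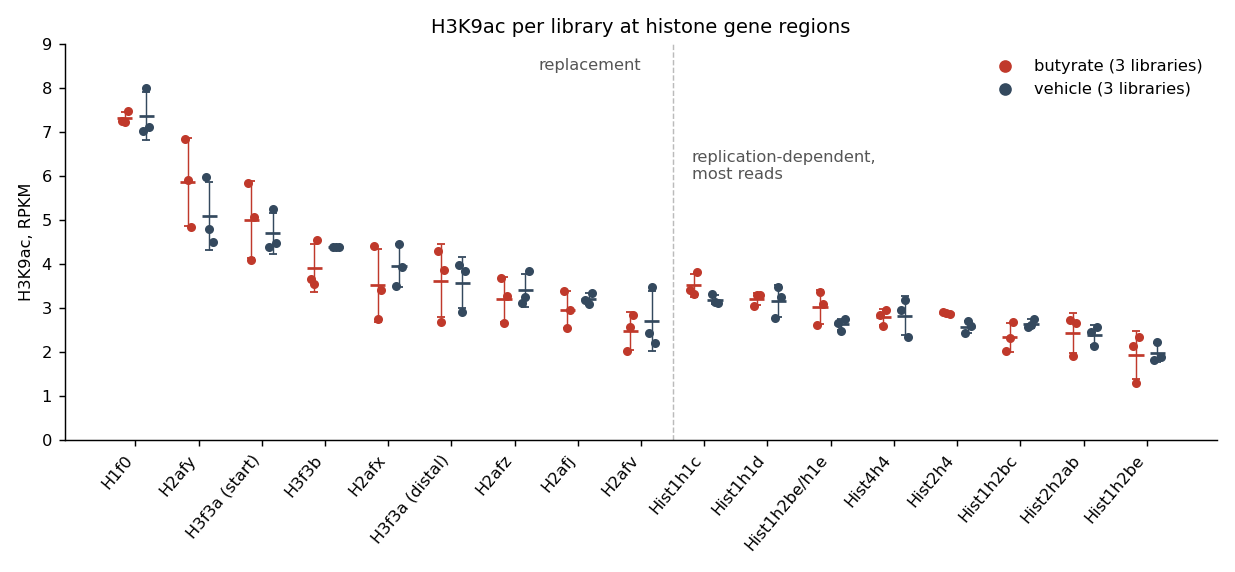
RPKM in each butyrate library (red, left) and vehicle library (dark, right) at the 9 replacement regions and the 8 replication-dependent regions with the most reads, with the mean and SD of each group (n = 3). H1f0 stands highest, at 7.01 to 7.998 RPKM, and the groups overlap at 15 of these 17 regions, the others being Hist1h1c and Hist2h4.

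Of the regions in the clusters, those of the linker genes Hist1h1c and Hist1h1d and the one shared by Hist1h1e and Hist1h2be held the highest levels, while Hist1h1b, given above, was lower. Hist1h1c, for H1.2 (chr13:23738002-23741128), had 3.40, 3.32 and 3.81 RPKM in butyrate libraries, against 3.31, 3.14 and 3.11 RPKM in vehicle libraries. Hist1h1d, for H1.3, had 3.04, 3.29 and 3.29 RPKM in butyrate libraries, against 2.76, 3.48 and 3.24 RPKM in vehicle libraries. The region over Hist1h1e and Hist1h2be had 2.60, 3.36 and 3.09 RPKM in butyrate libraries, against 2.66, 2.48 and 2.74 RPKM in vehicle libraries. At Hist1h1c the groups did not overlap, by a gap smaller than the spread within either group, and its difference was 0.11 ± 0.10 (limma, adjusted p = 0.827). The differences were 0.02 ± 0.11 at Hist1h1d and 0.15 ± 0.11 at Hist1h2be with Hist1h1e.

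The H4 gene Hist2h4 (chr3:96262405-96264694), whose region has no copied window, had 2.91, 2.88 and 2.85 RPKM in butyrate libraries, against 2.42, 2.69 and 2.58 RPKM in vehicle libraries. The groups did not overlap, and the difference was 0.12 ± 0.11 (limma, adjusted p = 0.806). Hist4h4, the lone H4 gene on chromosome 6, had 2.84, 2.58 and 2.94 RPKM in butyrate libraries, against 2.95, 3.18 and 2.34 RPKM in vehicle libraries, with overlapping groups and a difference of -0.01 ± 0.12. Both H4 genes carry the GGCCCT stem shown above. Hist1h4c had a difference of 0.19 ± 0.16.

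The divergent H2A and H2B pair under the name Hist1h2bc had 2.02, 2.30 and 2.67 RPKM in butyrate libraries, against 2.56, 2.60 and 2.75 RPKM in vehicle libraries, a difference of -0.13 ± 0.12. The 3 genes under the name Hist2h2ab had 2.73, 1.90 and 2.66 RPKM in butyrate libraries, against 2.44, 2.13 and 2.57 RPKM in vehicle libraries, a difference of 0.01 ± 0.13. The second region named Hist1h2be (chr13:23584280-23587127) had a difference of -0.04 ± 0.16. At each of these the groups overlapped. Of the thinner H2A and H2B regions, Hist1h2bb had a difference of 0.22 ± 0.15 at the region over its start (chr13:23745674-23747027) and of -0.14 ± 0.18 at a second region over its end (chr13:23747113-23747613). Hist1h2bh had a difference of -0.30 ± 0.16 and Hist1h2ak, in a region of 500 bp with 17.8 reads, one of -0.34 ± 0.17.

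Regions under the names of H3 genes held the largest differences in both directions, at few reads. Hist1h3a (chr13:23761562-23762718) had 1.83, 2.37 and 1.96 RPKM in butyrate libraries, against 2.45, 3.25 and 2.51 RPKM in vehicle libraries, from a mean of 57.8 reads per library. Hist1h3e had 1.65, 1.00 and 1.72 RPKM in butyrate libraries, against 3.03, 1.83 and 1.77 RPKM in vehicle libraries, from 40.5 reads. At both, all butyrate libraries lay below all vehicle libraries, by a gap smaller than the spread within either group. The differences were -0.29 ± 0.13 at Hist1h3a (limma, adjusted p = 0.669) and -0.38 ± 0.18 at Hist1h3e (limma, adjusted p = 0.703). The region named Hist1h3g, over the end of Hist1h2af, had 1.03, 0.45 and 0.41 RPKM in butyrate libraries, against 1.16, 2.51 and 0.67 RPKM in vehicle libraries, from 18.7 reads. Its difference of -0.53 ± 0.27 (95% interval -1.12 to 0.05) rested most on vehicle library S2, and without 1 library or another it lay between -0.78 and -0.24. In the other direction, Hist1h3h had 1.63, 1.12 and 1.47 RPKM in butyrate libraries, against 1.01, 1.18 and 0.82 RPKM in vehicle libraries, a difference of 0.26 ± 0.18, and Hist1h3d had a difference of 0.18 ± 0.15. The groups overlapped at both.

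Genes that make and deposit histones were read from lists, at the region of each name with the most reads. Of 22 genes for the transcription and mRNA processing of histone genes 15 named a region, and 0 of these were called, with 10 above and 5 below 0 and a median difference of 0.04. Slbp, the stem-loop binding protein, had 2.42 ± 0.09 RPKM in butyrate libraries and 2.77 ± 0.15 RPKM in vehicle libraries (SD, n = 3 each), a difference of -0.14 ± 0.11. Ccne2, a cyclin of S phase entry, had a difference of -0.20 ± 0.13, Srrt, of the nuclear cap complex, one of 0.15 ± 0.14, and Nelfe, of the elongation factor NELF, one of 0.13 ± 0.12. Npat, the coactivator of histone gene transcription, is not among the names, but its start lay in the region named Atm, at 2.83 RPKM. The starts of Ncbp1 and Ncbp2 likewise lay in regions under a neighbour's name, and those of Zfp473, Cstf2, E2f1 and Ccne1 lay in none.

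Of 13 chaperones and factors of replication-coupled deposition 10 named a region, with 5 above and 5 below 0 and 0 called. Ipo4, an importin that carries H3 and H4 into the nucleus, had 3.35, 3.33 and 2.89 RPKM in butyrate libraries, against 2.21, 2.23 and 1.15 RPKM in vehicle libraries. Rbbp7, a chaperone subunit bound to H4, had 3.06, 3.35 and 2.67 RPKM in butyrate libraries, against 4.03, 3.47 and 5.03 RPKM in vehicle libraries. The groups did not overlap at either gene, from means of 40.2 and 38.2 reads. The differences were 0.57 ± 0.16 at Ipo4 (limma, adjusted p = 0.533) and -0.36 ± 0.12 at Rbbp7 (limma, adjusted p = 0.572). In the lists the groups also did not overlap at Ubn1, higher with butyrate, and at Slbp, Ccne2, Asf1a, Vps72 and Ssrp1, lower with it. Over all regions 6.83% were wholly higher with butyrate and 7.35% wholly lower. Mms22l had a difference of 0.15 ± 0.11 and its partner Tonsl, which reads newly made H4 behind the fork, one of -0.43 ± 0.21. The starts of Chaf1b, Asf1b and Mcm2, all of them S-phase genes, lay in no region.

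Of 23 chaperones and remodellers of replacement variants 14 named a region, with 8 above and 6 below 0, 0 called and a median difference of 0.02. Dek had 0.16 ± 0.10, Ubn1, a subunit of the HIRA complex that deposits H3.3, had 0.14 ± 0.09, Ssrp1, of the chaperone FACT, had -0.16 ± 0.10 and Vps72, which binds H2A.Z, had -0.15 ± 0.11, all as log2 differences. The starts of Daxx, Srcap, Znhit1 and Hjurp lay in regions that carry another gene's name. In median level the regions of this list had 4.02 RPKM, those of replication-coupled deposition 3.44 RPKM and those of transcription and processing 2.92 RPKM.

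Markers of dividing crypt cells were thin in the same libraries. Of 12 such genes 6 named a region, Mki67, Pcna, Mcm6, Ccnb1, Ccna2 and Myc, with a summed level of 8.35 to 11.5 RPKM in butyrate libraries and 9.63 to 12.6 RPKM in vehicle libraries. The starts of Top2a, Mcm3, Mcm5, Cdk1, Lgr5 and Ascl2 lay in no region. Their part in the levels of the replication-dependent genes was not tested.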

How the data were processed

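H3K9ac ChIP-seq libraries (3 butyrate, 3 vehicle) were analysed from 1 deposited table; the 2 input libraries were not analysed here. The authors deposited RPKM per region, that is reads per kilobase of region scaled to an effective library size, together with their own log2 fold changes, log2 CPM and p-values with false discovery rates, per the file headers. The submitters' processing notes name STAR, Picard, HOMER, edgeR and mm10, without roles; how regions were called is not given in the sources used here. Reads were paired, 100 bp, per the labels. RPKM times region length was a whole multiple of 1 step in each library (100.0% of values within 0.01), which gave back reads and library sizes.

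Butyrate was compared with vehicle by limma 3.58.1 (R 4.3.3; trend and robust) on log2(RPKM + 1), so differences understate the change of low regions, over regions with a mean of at least 1 RPKM, with Benjamini-Hochberg adjustment over all of them; it was tested on simulated data. Annotation was GENCODE M21 and RefSeq GRCm38.p6, the build of mm10. Copies are exact matches of 100-base windows anywhere on the chromosomes; genes over 5 kb were searched for the commonest stem-loop form only. The table's columns were tied to groups by name, not to replicate numbers. Named regions are every replacement region, the 8 replication-dependent regions with the most reads and, in each direction, the 5 of smallest p. Likewise the 2 of smallest p per pathway list are named in each direction. Regions named for position, coverage, copies, a shared name or groups that did not overlap were chosen after their values were seen. An overlap of a histone gene region with a further gene is not reported here. The members and lists were chosen with earlier results of these data known. Alternatives changed the filter, pseudocount, scaling, test, libraries, regions per gene and class of H2afx and H2afj.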

Additional observations from a re-analysis of the deposited data

How the results depend on the processing

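No paired analysis was possible because the columns of the table carry library numbers that are not the replicate numbers of the labels, so no fit with a replicate block could be made. No histone gene region was called under any filter, pseudocount, scaling, test or left-out library, and the class medians moved by less than the spread between libraries. The count over all regions was 0 with limma in each alternative run, and with voom on recovered reads it was 16, or 9 among regions of at least 25 reads, an alternative added after seeing the data. Of the 26 named regions 17 kept their sign throughout, and the other 9 lay within 0.08 of 0. By voom, in place of values below 0, H1f0 was at 0.00078, or still below 0 at -0.00034 with at least 25 reads, and Hist4h4 was at 0.0012, or 0.0017 with at least 25 reads. Leaving out each library in turn gave -0.039 to 0.045 at H1f0, -0.10 to 0.059 at Hist4h4, -0.052 to 0.074 at Hist1h1d, -0.032 to 0.18 at the start of H3f3a, -0.10 to 0.16 at its distal region, -0.051 to 0.13 at Hist2h2ab, -0.15 to 0.12 at the second Hist1h2be region, -0.18 to 0.064 at H2afv and -0.15 to 0.025 at H2afz. The same gave a median of -0.02 to 0.05 over replication-dependent and of -0.10 to 0.00 over replacement regions. Depth limits the replication-dependent genes most, since 39.5% of their regions held under 25 reads.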
